A study of Mus musculus with 6 samples.

Results

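Wt1, Msln, Upk3b, Upk1b, Lrrn4 and Slpi are 6 genes used as markers of mesothelium, the sheet of cells that covers the outer surface of the gut. They were taken by gene name from the deposited gene table, which held all 6 of them among its 15238 genes. RNA had been sequenced in bulk from intestinal podoplanin+ fibroblasts of Balb/c pups at postnatal day 9, sorted as negative for CD45, EpCAM and CD31. All 6 libraries shared the listed preparation, with 10 mM EDTA for 30 min, digestion for 20 min, 37 °C and 100 ng of RNA. Of the 6 libraries, 3 came from DdblGata1 pups (replicates 4, 9 and 10) and 3 from wild-type pups (replicates 1, 3 and 4). DdblGata1 is a germline deletion of a doubled GATA site in the promoter of Gata1, a blood cell transcription factor, and the labels call these pups eosinophil-deficient. Nothing in the labels says whether animals were pooled or whether each library came from a separate pup, so p-values measure the spread between these libraries, which may be technical. The name Wt1 always stands for the gene here, and the libraries are named by genotype and replicate.

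Mesothelial cells are epithelium-like cells of mesodermal origin that make a slippery, non-adhesive surface for the gut and other organs. They carry podoplanin on their surface, so a podoplanin gate does not in principle exclude them, and in the mouse embryo they give rise to part of the mesenchyme of the gut wall. Wt1 encodes a zinc finger transcription factor of mesothelium, kidney podocytes, Sertoli cells and epicardium. Msln encodes mesothelin, a surface protein with a lipid anchor, whose binding partner is the mucin encoded by Muc16. Upk1b and Upk3b encode uroplakins, membrane proteins best known from the bladder lining, where Upk1b is a tetraspanin. Lrrn4 encodes a membrane protein with leucine-rich repeats. Slpi encodes a secreted inhibitor of leukocyte serine proteases, made also by many epithelia and by leukocytes.

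Wt1 protein occurs in forms that differ in how they bind DNA and RNA, and the forms arise by splicing. The sequences of the alternative splice are shown because the Wt1 values below are split by it. On GRCm38, Wt1 (ENSMUSG00000016458) lies on chromosome 2 from 105126529 to 105173616, plus strand. The exon that precedes the last one can end 9 bases later, at 105170018, and these 9 coding bases (chr2:105170010-105170018) add the amino acids known as KTS between zinc fingers. In the lines below they are in capitals in a transcript that holds them, Wt1-201, and missing from Wt1-202. Both sequences were read 5′ to 3′ from the GENCODE M21 transcripts.
Wt1-201: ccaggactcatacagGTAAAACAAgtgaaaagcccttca
Wt1-202: ccaggactcatacaggtgaaaagcccttca
A coding exon of 51 bases (chr2:105144142-105144192) can also be included or skipped. It is given here from Wt1-202 in capitals, with 12 bases of each neighbouring exon in lower case.
Wt1-202: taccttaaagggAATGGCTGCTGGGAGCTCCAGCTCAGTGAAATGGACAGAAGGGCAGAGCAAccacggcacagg

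Promoter sequences from 250 bases before to 50 bases after the start were matched in RefSeq (GRCm38.p6) for 3 of the 6 genes, Upk3b, Lrrn4 and Slpi. They are shown because Upk3b and Lrrn4 varied together across the 6 libraries (Pearson's r 0.93 of log2 CPM), while Slpi had r of 0.40 and 0.05 with them. Within each genotype, however, Slpi had the same order of libraries as Upk3b and Lrrn4. Capitals mark the TEAD motif CATTCC, searched on both strands (GGAATG on the other strand).
Upk3b, chr5:136038246-136038545, plus strand: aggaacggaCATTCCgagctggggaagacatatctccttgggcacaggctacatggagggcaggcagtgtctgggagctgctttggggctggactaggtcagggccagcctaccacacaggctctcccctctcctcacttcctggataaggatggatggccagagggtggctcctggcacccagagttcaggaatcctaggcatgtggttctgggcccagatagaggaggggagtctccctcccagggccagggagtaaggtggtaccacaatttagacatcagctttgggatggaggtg
Lrrn4, chr2:132880813-132881112, minus strand: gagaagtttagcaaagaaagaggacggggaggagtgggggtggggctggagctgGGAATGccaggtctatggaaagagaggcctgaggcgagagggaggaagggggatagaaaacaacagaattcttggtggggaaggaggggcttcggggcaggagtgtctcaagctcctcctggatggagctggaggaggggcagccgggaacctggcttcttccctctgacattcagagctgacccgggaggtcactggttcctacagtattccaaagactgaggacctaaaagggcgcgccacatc
Slpi, chr2:164356458-164356757, minus strand: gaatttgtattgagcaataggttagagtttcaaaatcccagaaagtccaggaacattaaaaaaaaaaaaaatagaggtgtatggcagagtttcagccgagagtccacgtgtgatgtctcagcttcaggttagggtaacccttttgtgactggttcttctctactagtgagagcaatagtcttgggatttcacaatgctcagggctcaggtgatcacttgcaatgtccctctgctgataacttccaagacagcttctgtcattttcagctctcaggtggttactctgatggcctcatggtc
The motif CATTCC occurred 1 time in the Upk3b window and 1 time in the Lrrn4 window, and 0 times in that of Slpi. Of all 32851 promoters in the table, 14.7% held it. The Wt1 core motif GTGGGAG (9.73% of all promoters) and the AP-1 motif TGACTCA (5.20%), both searched on both strands, occurred in 0 of the 3 windows. A match describes these letters and does not show a binding site. The Slpi window lies inside the span of the gene given below, so it is not at the most upstream annotated start. No promoter was matched for Msln and Upk1b, the members that varied together most closely (Pearson's r 0.97 of log2 CPM over 6 libraries). Any link between the motif and shared variation was not tested.

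The libraries were deep and of similar size, with 28110454 to 30993472 estimated counts in the gene table for DdblGata1 libraries and 30210644 to 31210800 for wild-type libraries. Fibroblast genes defined them: Col1a1 ranged from 16403 to 42395 CPM (counts scaled to library size by the TMM method, per 1e6) in DdblGata1 and from 30664 to 43732 CPM in wild-type libraries. Podoplanin itself (Pdpn) had 53.9, 41.5 and 50.0 CPM in DdblGata1 replicates 4, 9 and 10, and 25.1, 42.0 and 41.8 CPM in wild-type replicates 1, 3 and 4. One library stood apart by the markers of another cell type. The 12 epithelial markers summed to 1316 CPM in wild-type replicate 1, against 227 to 330 CPM in DdblGata1 libraries and 184 and 241 CPM in wild-type replicates 4 and 3.

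All 6 genes were expressed at moderate levels in every library. On the TPM scale, which corrects for transcript length and allows genes to be compared, Msln was highest with a mean of 61.1 TPM over the 6 libraries (range 36.2 to 93.1). Upk3b followed with 51.1 TPM (34.4 to 66.9), then Wt1 with 29.2 (17.0 to 46.9), Slpi with 26.5 (10.7 to 43.4), Lrrn4 with 24.0 (12.9 to 37.8) and Upk1b with 17.6 TPM (8.77 to 25.7). The ranges of neighbours in this order overlapped throughout. Msln stood at the 84.7th percentile of mean TPM among the table's genes and Upk1b at the 56.8th. Of the other uroplakins, Upk2 had 0 estimated counts in all 6 libraries and Upk3a had 0 to 6, while Upk1a was in the table with 8 to 28 counts per library.

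DdblGata1 libraries were then set against wild-type libraries, a comparison of pups without and with eosinophils. Wt1 was higher by value and Slpi lower by value in DdblGata1 libraries, each without overlap between the genotypes, while Msln, Upk3b, Upk1b and Lrrn4 overlapped. By the quasi-likelihood test of edgeR with Benjamini-Hochberg adjustment over all genes, 0 of the 6 passed 0.05, where 0 of 15238 genes (0%) passed. At an unadjusted p under 0.05, 1 member was higher and 1 lower. Over all genes, 6.03% were higher and 4.23% lower at that level. DESeq2 called 2 members, Wt1 higher and Slpi lower. Over all genes it called 214 (1.4%), of which 142 were higher (0.932%) and 72 lower (0.473%). In a bulk sample, fewer cells of a type and less RNA per cell cannot be told apart, and this holds for every level below.

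**Figure D1:**
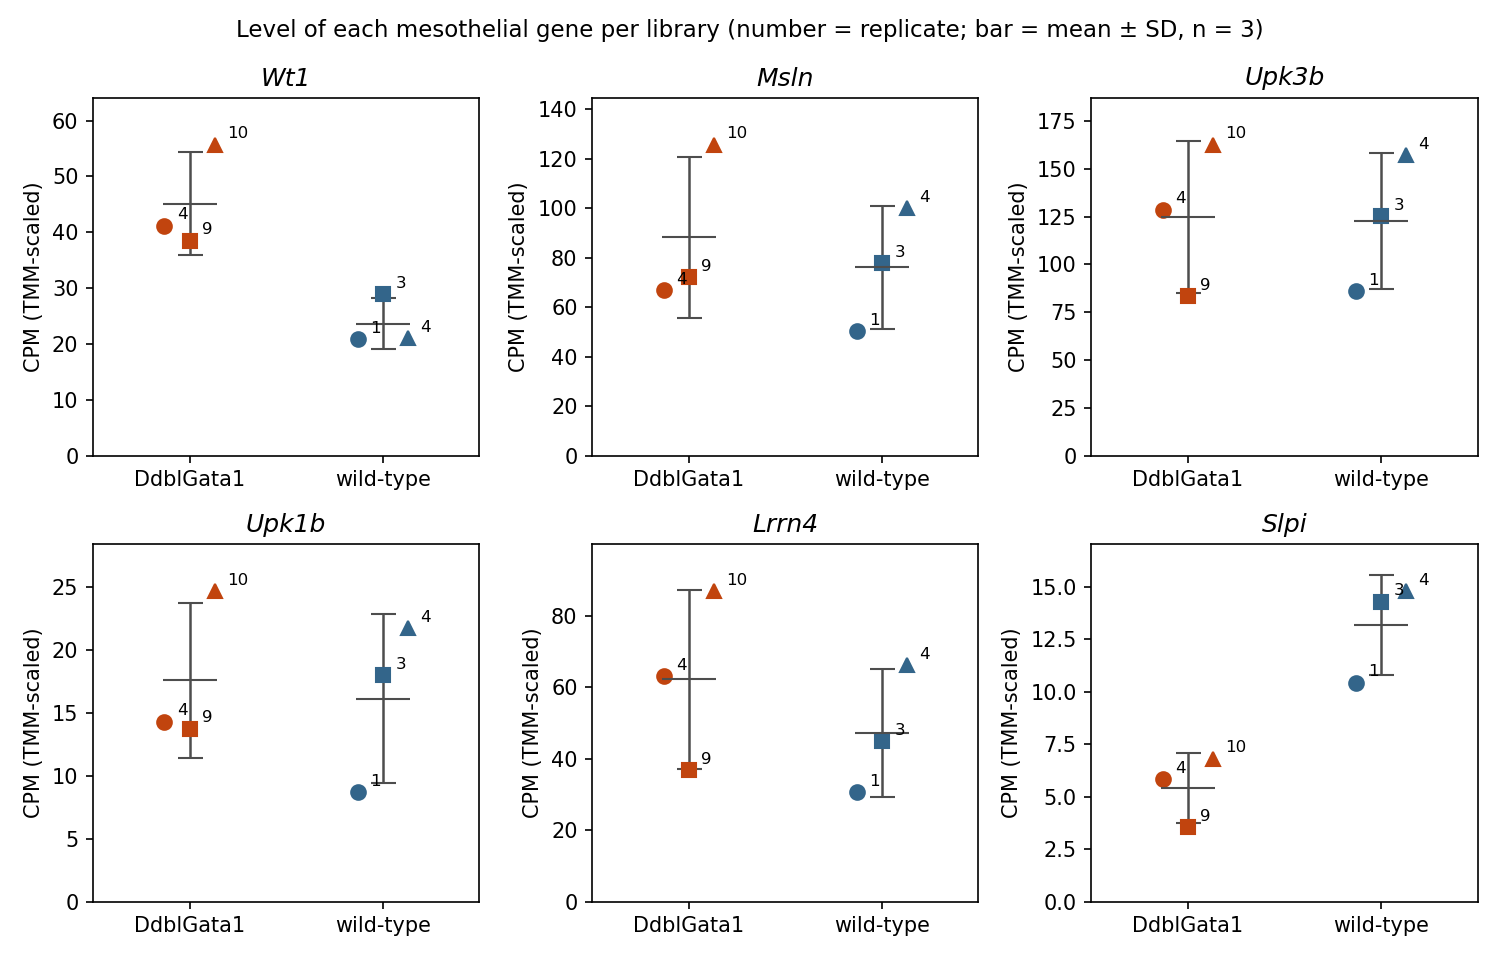
Level of each of the 6 genes in CPM (TMM-scaled, linear axis from 0) in the DdblGata1 (left, orange) and wild-type (right, blue) libraries; numbers are replicates, and bars are the mean ± SD of 3 libraries. Wt1 does not overlap (38.5 to 55.7 CPM in DdblGata1, 20.9 to 28.9 in wild-type), nor does Slpi, while the other 4 genes overlap.

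Wt1 had 41.2, 38.5 and 55.7 CPM in DdblGata1 replicates 4, 9 and 10, against 20.9, 28.9 and 21.0 CPM in wild-type replicates 1, 3 and 4. The lowest DdblGata1 library lay above the highest wild-type library, as was the case for 8.98% of all genes. The means were 45.1 ± 9.25 CPM in DdblGata1 and 23.6 ± 4.57 CPM in wild-type libraries (SD, n = 3 each), and the fitted fold was 1.91. The log2 fold change was 0.94 ± 0.21 (SE), with an edgeR unadjusted p of 0.00208 and adjusted p of 0.384. DESeq2 gave an adjusted p of 0.0163, which was 0.209 without DdblGata1 replicate 10, 0.109 without wild-type replicate 1 and 0.115 without wild-type replicate 4. The difference was thus past the threshold of DESeq2 and not that of edgeR.

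Of the 9 annotated Wt1 transcripts, Wt1-209 was listed at 0 TPM in all 6 libraries. Wt1-201, the most abundant transcript in 5 libraries, had 9.25, 14.5 and 22.2 TPM in DdblGata1 replicates 4, 9 and 10, against 4.96, 8.35 and 8.51 TPM in wild-type replicates 1, 3 and 4. In DdblGata1 replicate 4 the transcript Wt1-204 was slightly above it, with 9.83 TPM, yet that transcript was listed at 0 in DdblGata1 replicate 9. Transcripts with the 9 bases summed to 17.6, 21.0 and 30.6 TPM in DdblGata1 libraries and to 8.38, 13.6 and 12.1 TPM in wild-type libraries. Those without the 9 bases summed to 15.1, 9.02 and 12.6 TPM in DdblGata1 libraries and to 6.42, 7.57 and 4.89 TPM in wild-type libraries. Both forms were therefore higher by value in every DdblGata1 library than in any wild-type library.

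The proportion of the splice forms overlapped between genotypes. Among transcripts that span the junction, the share with the 9 bases was 53.8%, 69.9% and 70.7% in DdblGata1 replicates 4, 9 and 10, and 56.6%, 64.2% and 71.2% in wild-type replicates 1, 3 and 4. Among the same transcripts, the share with the exon of 51 bases was 30.1%, 41.3% and 38.7% in DdblGata1 libraries and 29.7%, 30.1% and 38.8% in wild-type libraries. Transcripts that begin in the downstream first exon (chr2:105130883-105131152) held 44.4%, 78.3% and 77.2% of the TPM of these transcripts in DdblGata1 libraries and 49.1%, 52.7% and 68.8% in wild-type libraries, and the other 5 begin in an upstream first exon. The annotated transcripts do not hold every combination of these features, and Wt1-201 and Wt1-202 differ at both places at once, so the shares are uncertain and were not tested.

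**Figure D2:**
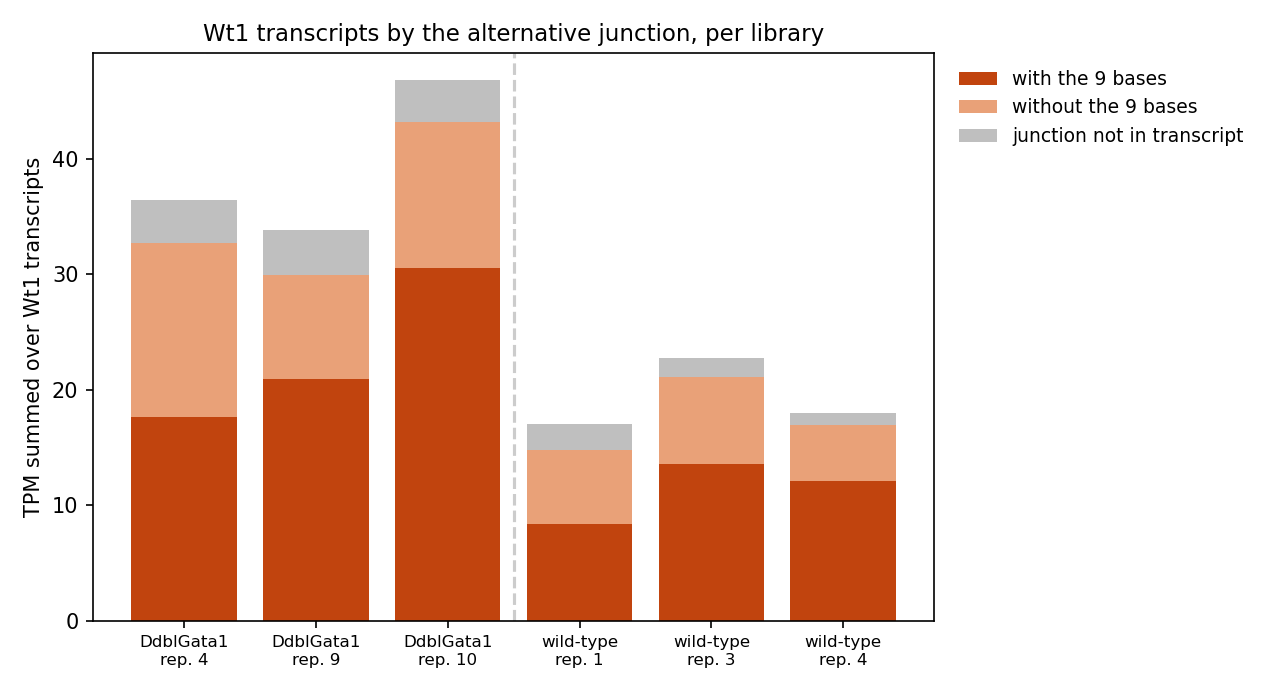
TPM summed over the transcripts of Wt1 in each library, DdblGata1 left and wild-type right, stacked by whether a transcript holds the 9 alternative bases, lacks them or does not span the junction. Bars total 33.8 to 46.9 TPM in DdblGata1 and 17.0 to 22.8 TPM in wild-type libraries, with both spliced forms present in each.

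Msln, the surface protein of mesothelium, had 67.0, 72.2 and 126 CPM in DdblGata1 replicates 4, 9 and 10, and 50.4, 77.8 and 100.1 CPM in wild-type replicates 1, 3 and 4. DdblGata1 replicate 10 and wild-type replicate 4 were the high libraries, and the genotypes overlapped. Means were 88.3 ± 32.5 CPM in DdblGata1 and 76.1 ± 24.9 CPM in wild-type libraries (SD, n = 3 each), with a log2 fold change of 0.21 ± 0.31 (SE; edgeR adjusted p 0.808). Msln (ENSMUSG00000063011) lies on chromosome 17 from 25748613 to 25754378. Its partner Muc16 had the same high and low libraries: 16.2, 18.1 and 28.5 CPM in DdblGata1 and 9.76, 17.8 and 24.3 CPM in wild-type libraries.

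The uroplakin Upk3b had 129, 83.6 and 163 CPM in DdblGata1 replicates 4, 9 and 10, and 86.2, 125 and 157 CPM in wild-type replicates 1, 3 and 4. Its means were close, 125 ± 39.7 CPM in DdblGata1 and 123 ± 35.6 CPM in wild-type libraries (SD, n = 3 each), and its log2 fold change was 0.02 ± 0.29 (SE; edgeR adjusted p 0.979). Upk3b (ENSMUSG00000042985) lies on chromosome 5 from 136038496 to 136046487.

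Upk1b, the tetraspanin uroplakin, had 14.3, 13.7 and 24.7 CPM in DdblGata1 libraries and 8.69, 18.0 and 21.7 CPM in wild-type libraries, in the same order. The groups overlapped, with a log2 fold change of 0.12 ± 0.37 (SE; edgeR adjusted p 0.911). A short retained-intron transcript, Upk1b-202, was listed at 5.59 and 4.08 TPM in wild-type replicates 3 and 4 on 14.6 and 7.63 estimated counts, and at 0 in the other 4 libraries. The coding transcript Upk1b-201 alone had 15.6, 14.95 and 25.7 TPM in DdblGata1 libraries and 8.77, 11.99 and 18.9 TPM in wild-type libraries. With plain sums of transcript counts, which give the short transcript less weight, the log2 fold change of Upk1b was 0.43 (edgeR adjusted p 0.585). Upk1b (ENSMUSG00000049436) lies on chromosome 16 from 38773184 to 38800328.

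Lrrn4 had 63.0, 36.9 and 86.9 CPM in DdblGata1 replicates 4, 9 and 10, and 30.7, 44.9 and 66.2 CPM in wild-type replicates 1, 3 and 4. The low libraries were DdblGata1 replicate 9 and wild-type replicate 1, and the genotypes overlapped. The log2 fold change was 0.40 ± 0.36 (SE; edgeR adjusted p 0.689), which moved to 0.72 when wild-type replicate 4 was left out and to 0.65 when DdblGata1 replicate 9 was. Leaving out wild-type replicate 1 gave 0.14, and leaving out DdblGata1 replicate 10 gave 0.07. Lrrn4 (ENSMUSG00000043110) lies on chromosome 2 from 132868305 to 132880891. Lrrn4cl, a gene named for its likeness to it, was higher without overlap, with 92.8, 117 and 158 CPM in DdblGata1 and 33.5, 74.4 and 51.2 CPM in wild-type libraries, and DESeq2 called it (adjusted p 0.0222; edgeR unadjusted p 0.00429).

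Slpi, the secreted protease inhibitor, had 5.83, 3.57 and 6.81 CPM in DdblGata1 replicates 4, 9 and 10, against 10.4, 14.3 and 14.8 CPM in wild-type replicates 1, 3 and 4. Every DdblGata1 library lay below every wild-type library, as was the case for 7.34% of all genes. Means were 5.41 ± 1.66 CPM in DdblGata1 and 13.2 ± 2.38 CPM in wild-type libraries (SD, n = 3 each), a fitted ratio of 0.411. The log2 fold change was -1.28 ± 0.29 (SE), with an edgeR unadjusted p of 0.00233 and adjusted p of 0.384. DESeq2 gave an adjusted p of 0.0119, which was 0.0719 without DdblGata1 replicate 9, 0.0918 without wild-type replicate 3 and 0.104 without wild-type replicate 4. A short transcript, Slpi-202, was listed at 4.86 TPM in DdblGata1 replicate 4 and 9.88 and 3.31 TPM in wild-type replicates 1 and 3. It rested on 10.2, 27.3 and 10.6 estimated counts there. Slpi-201 alone had 12.2, 10.7 and 18.9 TPM in DdblGata1 libraries, against 19.1, 33.9 and 42.9 TPM in wild-type libraries, a narrow gap. With plain sums of transcript counts the log2 fold change of Slpi was -1.25 (edgeR adjusted p 0.323). Slpi (ENSMUSG00000017002) lies on chromosome 2 from 164354070 to 164389095.

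Slpi is also made outside mesothelium, so markers of its other sources are given beside it. The epithelial markers named above were high in 1 wild-type library, and Slpi was lowest there among wild-type libraries (10.4 CPM); without that library its log2 fold change was -1.45. Of 11 leukocyte markers, 7 were in the table, of which 6 were lower by value in DdblGata1 libraries and 1, Cd3e, higher. They summed to 26.4 to 41.8 CPM in DdblGata1 and 30.1 to 95.6 CPM in wild-type libraries. The highest sum was in wild-type replicate 1, where Slpi was lowest among wild-type libraries. Of these 7, only Lyz2, the lysozyme of macrophages and neutrophils, was lower without overlap, as were 7.34% of all genes. It had 9.20, 8.84 and 6.75 CPM in DdblGata1 libraries, against 19.7, 14.6 and 9.78 CPM in wild-type libraries (log2 fold change -0.83 ± 0.29, SE; edgeR unadjusted p 0.0195; DESeq2 adjusted p 0.189). Among wild-type libraries Lyz2 had the reverse order of Slpi. Among DdblGata1 libraries, replicate 10 had the lowest Lyz2 and the highest Slpi. Ptprc, which encodes CD45, had 0.697 to 0.969 CPM in DdblGata1 and 0.720 to 4.06 CPM in wild-type libraries. Cd74, the chaperone of antigen-presenting molecules, had 8.34 to 26.9 CPM in DdblGata1 and 9.55 to 58.4 CPM in wild-type libraries. The neutrophil genes S100a8 and S100a9 had 0 to 7 estimated counts per library. Elane, a neutrophil protease that Slpi inhibits, had 1 estimated count, in wild-type replicate 3, and was at 0 elsewhere. Of 13 genes listed as relatives of Slpi or neutrophil proteases, Slpi included, 4 were in the table. Prtn3, a neutrophil protease listed without evidence here that Slpi inhibits it, had 0.367, 0.265 and 0.323 CPM in DdblGata1 libraries and 0.458, 1.10 and 0.982 CPM in wild-type libraries (edgeR unadjusted p 0.03). These values rest on 8 to 32 counts per library. The log2 fold change of the relative Wfdc1 was -0.33 ± 0.16 and that of Wfdc2, which stayed near 1 CPM or below, was 1.06 ± 0.55 (SE). Whether these sources had a part in the Slpi difference was not tested.

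Msln, Upk3b, Upk1b and Lrrn4 varied together from library to library, and Wt1 and Slpi were less correlated with them over all 6 libraries. Across the 6 libraries, Pearson's r of log2 CPM between pairs of these 4 genes ranged from 0.82 (Msln with Upk3b) to 0.97 (Msln with Upk1b), as a description of libraries that share the same sort. With Wt1 the same 4 genes had r of 0.25 to 0.53, and with Slpi 0.05 to 0.40; Wt1 and Slpi had r of -0.68. The geometric mean of the 4 genes was 52.8, 41.8 and 81.4 CPM in DdblGata1 replicates 4, 9 and 10, and 32.8, 53.0 and 69.0 CPM in wild-type replicates 1, 3 and 4. The genotypes overlapped, and the highest and lowest libraries of each genotype lay far apart. Within each genotype, Slpi had the same order of libraries as this mean, with 5.83, 3.57 and 6.81 CPM in DdblGata1 and 10.4, 14.3 and 14.8 CPM in wild-type libraries. Its low r over all 6 libraries thus includes its difference between the genotypes. Wt1 had the order of this mean in DdblGata1 libraries but not in wild-type libraries.

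Relative to these 4 genes, Wt1 remained higher and Slpi lower by value in DdblGata1 libraries. The ratio of Wt1 CPM to their geometric mean was 0.781, 0.921 and 0.684 in DdblGata1 libraries and 0.636, 0.545 and 0.305 in wild-type libraries, with a narrow gap between the groups. The same ratio for Slpi was 0.110, 0.0855 and 0.0837 in DdblGata1 libraries and 0.318, 0.269 and 0.214 in wild-type libraries. With the mean log2 CPM of the 4 genes as a covariate, the log2 fold change was 0.86 for Wt1 and -1.43 for Slpi (edgeR adjusted p 0.444 for both). This grouping of 4 genes was chosen after their values were seen, and the ratios were not tested.

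**Figure D3:**
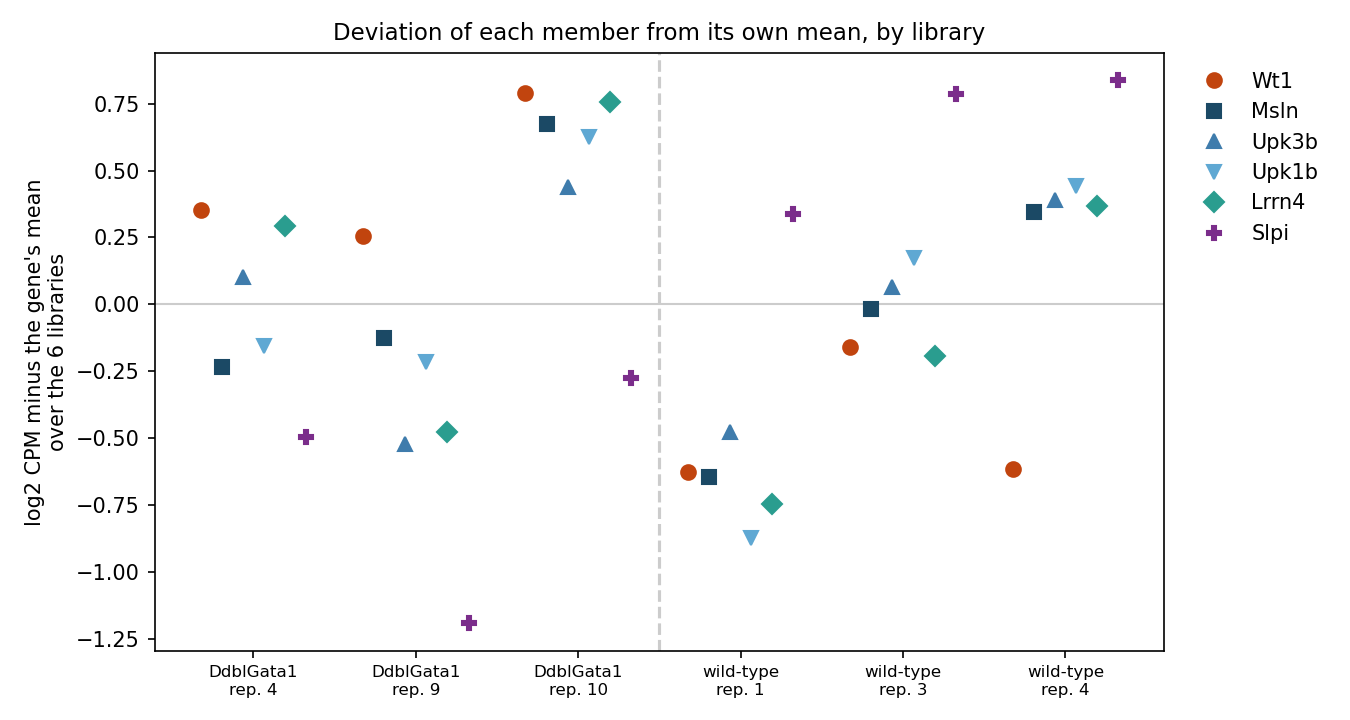
Deviation of each gene's log2 CPM from its own mean over the 6 libraries (vertical axis), for each library, DdblGata1 left and wild-type right of the dashed line; points of a library are spread sideways for legibility. Msln, Upk3b, Upk1b and Lrrn4 lie close together in most libraries, Wt1 lies above 0 in all DdblGata1 libraries and Slpi lies below 0 there.

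By likeness of pattern, no gene of the mesothelial list was among the closest genes named here. The mean of the 6 members includes Wt1 and Slpi, which were less correlated with the other 4 over the 6 libraries. With the mean of Msln, Upk3b, Upk1b and Lrrn4, Gpm6a of the mesothelial list had r of 0.967. That was just below Sulf1 (0.969), the last of the 8 genes closest to that mean. Among genes with a mean log2 CPM of at least 1, the 8 closest to the standardised mean of the 6 members were Rarres2 (Pearson's r 0.98 over 6 libraries), Ggh, Pcdhb12, Mdfic, Hlcs, Sulf1, Mastl and Mfsd1 (0.97 for the last). Sulf1, an editor of heparan sulfate, had 194, 183 and 322 CPM in DdblGata1 libraries and 146, 209 and 241 CPM in wild-type libraries. The 5 genes closest to Wt1 alone were Trim24, a transcription cofactor, then Zfp970, Ifi211, Gm14443 and Gm14421, with r of 0.99 or more. Trim24 had 88.5, 79.7 and 129 CPM in DdblGata1 libraries and 35.3, 50.8 and 36.0 CPM in wild-type libraries. Of these 5, Zfp970, Gm14443 and Gm14421 lie on chromosome 2, as Wt1, Lrrn4 and Slpi do. The starts of Zfp970, Gm14443 and Gm14421 are at 177464733, 175166255 and 177053516, far from that of Wt1 at 105126529. Zfp970, Gm14443, Gm14421 and Ifi211 have close relatives, so their counts are uncertain. These were the highest of 12829 candidate genes over 6 libraries, and they are given as a description.

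The other genes known from mesothelium did not move one way. Of 20 listed, 19 were in the table (Wt1os was not measured), 10 higher and 9 lower by value, and their median log2 fold change was 8.73e-05, beside -0.01 over all genes. By edgeR 0 passed after adjustment; at an unadjusted p under 0.05, 1 was higher and 3 lower, beside 6.03% and 4.23% of all genes. Tcf21, a transcription factor of coelomic and fibroblast lineages, had 110, 80.8 and 64.3 CPM in DdblGata1 libraries and 183, 130 and 148 CPM in wild-type libraries (log2 fold change -0.85 ± 0.22, SE; edgeR unadjusted p 0.0052), and DESeq2 called it lower (adjusted p 0.0404). Cdh3, encoding P-cadherin, had 10.3, 8.80 and 9.85 CPM in DdblGata1 and 12.7, 19.1 and 19.0 CPM in wild-type libraries. Nkain4, a sodium pump interacting protein, had a log2 fold change of -0.59 ± 0.25 and Pkhd1l1, a fibrocystin relative, 0.93 ± 0.39 (SE).

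These 19 genes were split in how they varied with the group of Msln. Pearson's r with the standardised mean of Msln, Upk3b, Upk1b and Lrrn4 was positive for 10 and negative for 9, from -0.77 to 0.97 with a median of 0.17. Gpm6a, a membrane glycoprotein, had 36.5, 35.6 and 81.7 CPM in DdblGata1 libraries and 23.2, 40.3 and 54.8 CPM in wild-type libraries. Gpm6a had the highest r, 0.97, and that of Muc16 was 0.93. Rspo1, a Wnt amplifier, and Anxa8, an annexin, had r of 0.87 and 0.90. At the other end, besides keratins, r was -0.50 for Tcf21, -0.44 for Ezr and -0.38 for Dmkn. Near 0 lay Nkain4 (-0.16), Aldh1a2 (-0.01) and Cdh3 (0.17). The r values describe 6 libraries.

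**Figure D4:**
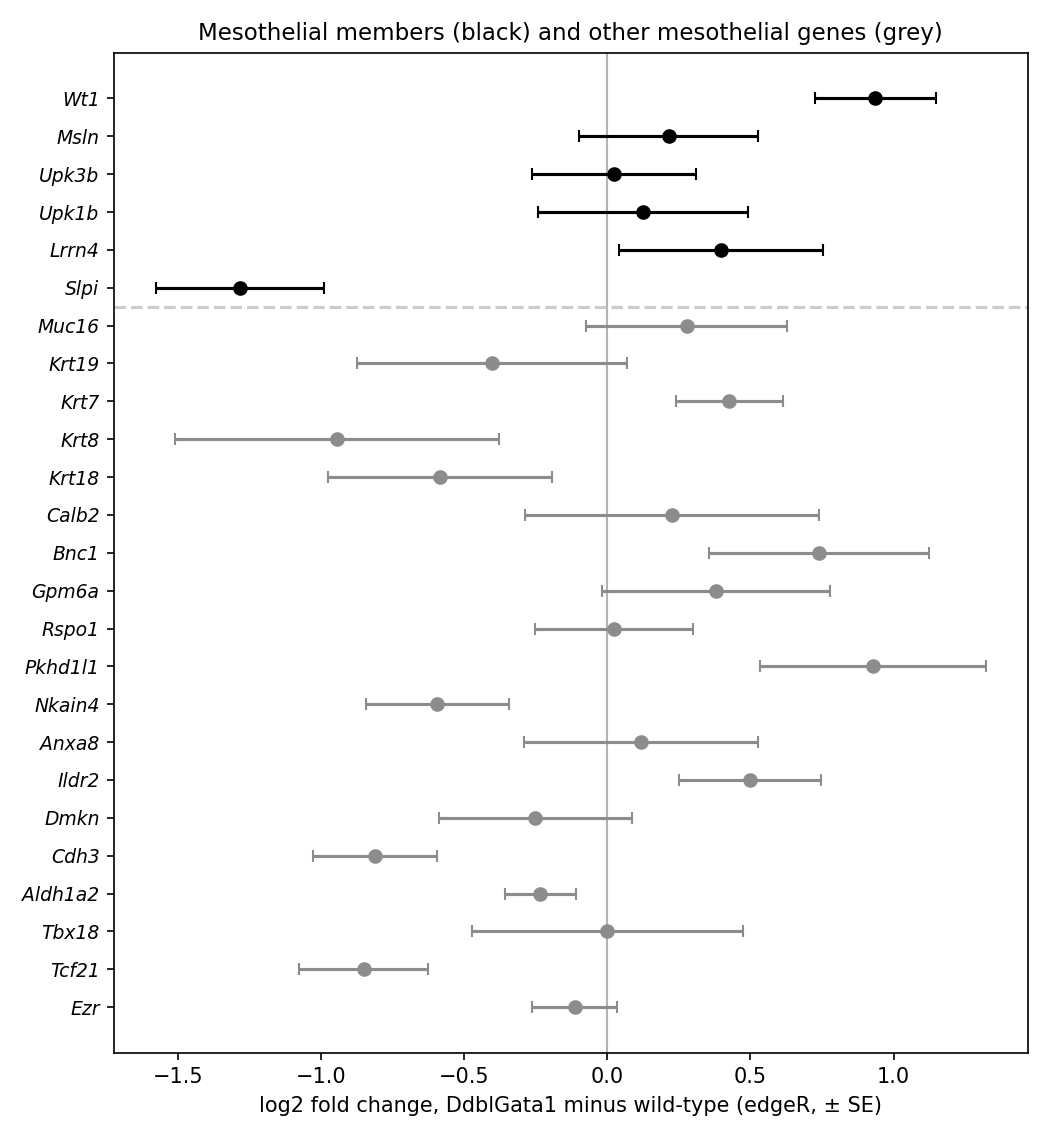
Log2 fold change, DdblGata1 minus wild-type, with its SE (edgeR, 3 libraries each), for the 6 members (black, upper part) and the 19 measured genes of the other mesothelial list (grey). Wt1 (0.94) and Slpi (-1.28) lie at opposite sides, and the grey points lie on both sides of 0.

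Of the 4 keratins in the mesothelial list, Krt8, Krt18 and Krt19 were highest in the library with the most epithelial marker RNA, and Krt7 was not. Krt8, Krt18 and Krt19 are made by mesothelium and by gut epithelium alike. Krt8 had 58.8, 41.5 and 34.9 CPM in DdblGata1 replicates 4, 9 and 10, and 179, 41.5 and 39.2 CPM in wild-type replicates 1, 3 and 4. Krt19 had 80.0, 40.0 and 57.1 CPM in DdblGata1 libraries and 144, 46.6 and 43.5 CPM in wild-type libraries. Both were highest in wild-type replicate 1, where Epcam had 110 CPM, against 19.0 to 25.8 CPM in DdblGata1 libraries and 16.7 and 14.0 CPM in wild-type replicates 3 and 4. In that same library Msln, Upk1b, Lrrn4 and Muc16 were at their lowest of all 6 libraries. Pearson's r with the mean of Msln, Upk3b, Upk1b and Lrrn4 over the 6 libraries was -0.77 for Krt8, -0.51 for Krt18 and -0.54 for Krt19. Krt7 had 19.0, 18.4 and 14.5 CPM in DdblGata1 libraries and 12.7, 11.9 and 14.0 CPM in wild-type libraries, higher without overlap (log2 fold change 0.43 ± 0.19, SE; edgeR unadjusted p 0.0518). Its r with the same mean was -0.02. The part of epithelial RNA in the keratin levels was not tested.

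**Figure D5:**
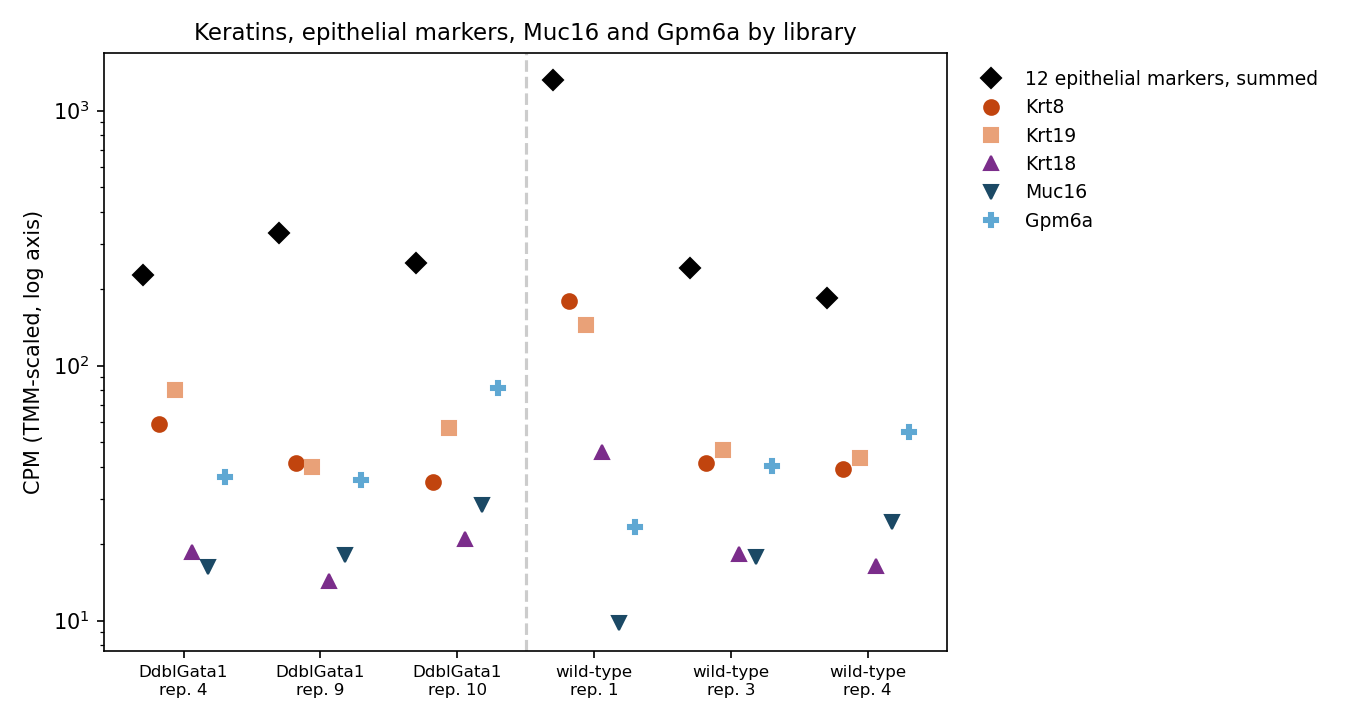
CPM (TMM-scaled, log axis) of Krt8, Krt18, Krt19, Muc16 and Gpm6a and the summed CPM of 12 epithelial markers in each library, DdblGata1 left and wild-type right of the dashed line. The epithelial sum is 1316 CPM in wild-type replicate 1 and at most 330 CPM elsewhere, and Krt8, Krt18 and Krt19 are highest in that library while Muc16 and Gpm6a are lowest.

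Genes that Wt1 regulates in mouse kidney, gonad or epicardium lay on both sides of 0. Of 12 listed, 9 were in the table, 3 higher and 6 lower by value, and edgeR called 0. Their median log2 fold change was -0.09, beside -0.01 over all genes. At an unadjusted p under 0.05, 0 were higher and 2 lower, beside the same shares of all genes. Wnt4, a Wnt ligand of kidney and gonad development, had 20.7, 8.67 and 7.91 CPM in DdblGata1 libraries and 25.3, 16.9 and 37.4 CPM in wild-type libraries (log2 fold change -1.10 ± 0.43, SE). Spry1, an antagonist of growth factor signalling, had a log2 fold change of -0.41 ± 0.17 (SE). Podxl, the sialomucin of podocytes and mesothelium, had 63.9, 40.0 and 93.2 CPM in DdblGata1 libraries and 33.1, 40.2 and 55.9 CPM in wild-type libraries, so the groups overlapped. Aldh1a2, the retinoic acid synthesis enzyme, was lower by value, at 161 to 172 CPM in DdblGata1 libraries and 190 to 198 CPM in wild-type libraries.

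All 9 listed partners of Wt1 and factors with its kind of zinc finger were measured, and 7 had higher values. At an unadjusted p under 0.05, 4 were higher and 0 lower, beside 6.03% of all genes higher and 4.23% lower, and edgeR called 0 after adjustment. Basp1, a protein that turns Wt1 into a repressor, had 70.5, 81.8 and 78.0 CPM in DdblGata1 libraries and 33.5, 57.2 and 42.3 CPM in wild-type libraries (log2 fold change 0.79 ± 0.21, SE; edgeR unadjusted p 0.00478; DESeq2 adjusted p 0.0574). Egr1, an early response factor that binds related GC-rich sites, had 2201, 2586 and 2356 CPM in DdblGata1 libraries and 1519, 1712 and 1567 CPM in wild-type libraries. DESeq2 called Egr1 (adjusted p 0.0165). Its relatives Egr2 and Egr3 had log2 fold changes of 0.57 ± 0.24 and 0.58 ± 0.25 (SE).

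Markers of adventitial and serosal fibroblasts, which lie next to mesothelium, had higher values in all 7 of 7 cases (median log2 fold change 0.80). At an unadjusted p under 0.05, 5 were higher and 0 lower, beside 6.03% of all genes higher and 4.23% lower, and edgeR called 0 after adjustment; the list was chosen with earlier results known. Of the 7, 6 were higher without overlap, as were 8.98% of all genes. DESeq2 called 2 higher, Dpp4 and Cd55, where it called 0.932% of all genes higher. Cd34 had 1127, 1147 and 1378 CPM in DdblGata1 libraries and 458, 861 and 800 CPM in wild-type libraries, and Anxa3 had 60.6, 52.7 and 79.2 CPM in DdblGata1 and 27.3, 43.7 and 39.2 CPM in wild-type libraries. The list summed to 2503 to 3079 CPM in DdblGata1 libraries and 1023 to 1920.3 CPM in wild-type libraries. Like Wt1, and unlike Msln, this sum did not overlap between the genotypes. Cd34 had the highest CPM of the list in every library and so weighed most in the sum. Ly6a overlapped, with 138 to 263 CPM in DdblGata1 and 61.4 to 161 CPM in wild-type libraries. The part of these fibroblasts in the Wt1 difference was not tested.

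Sums over the markers of other cell types overlapped between genotypes. Enteric glia markers summed to 107 to 188 CPM in DdblGata1 and 89.0 to 246 CPM in wild-type libraries, with Sox10 at 71.6, 30.0 and 28.6 CPM in DdblGata1 and 32.0, 93.0 and 76.5 CPM in wild-type libraries. Smooth muscle markers were lower by value, 6 of 6, with 4 at an unadjusted p under 0.05, beside 4.23% of all genes. DESeq2 called 1 of them, Des, lower (adjusted p 0.0303), beside 0.473% of all genes. They summed to 5630.1 to 8749 CPM in DdblGata1 and 8188 to 13159 CPM in wild-type libraries. Endothelial Pecam1, which encodes CD31, had 5.53 to 6.97 CPM in DdblGata1 and 3.37 to 7.78 CPM in wild-type libraries. Of 9 endothelial rows, DESeq2 called 1, Tek, which encodes an angiopoietin receptor, as higher (adjusted p 0.0176), beside 0.932% of all genes.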

How the data were processed

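The submitters' processing notes list bcl2fastq 2.2, kallisto, R 4.2.2, DESeq2, mm10 and GRCm38.p6 without their roles. The authors' gene table has whole-number expected counts (estimated counts) for 15238 genes, each with at least 10 counts in at least 3 libraries. The deposited transcript files carry expected counts, TPM and other values (effective lengths) for 115270 transcripts. Of the gene values, 99.6% equalled length-scaled TPM within 1% plus 1 count. A deposited sample sheet adds a size factor (a ratio) and a pair of surrogate variables (a score without a stated method). Strand use in counting was not stated.

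Counts were fitted over all genes in edgeR 4.0.16 under R 4.3.3 by the robust quasi-likelihood test, with TMM scaling, filterByExpr (0 genes removed) and Benjamini-Hochberg adjustment at 0.05. The procedure was tested on simulated data. SE is the absolute log2 fold change over the root of F. Log2 CPM had a prior count of 2. Alternatives used DESeq2 1.42.0 and limma 3.58.1, with limma also run on log2(TPM + 1). Coordinates and transcripts come from GENCODE M21 (GRCm38). The text names the 6 genes, up to 4 per list by smallest edgeR p, defining markers, and the genes closest in pattern. Gpm6a, Rspo1, Anxa8, Ezr, Dmkn, Krt7, Krt8, Krt18, Cd74, S100a8, S100a9 and Elane were picked after their values were seen. Members and lists were chosen with earlier results of these data known. The labels name no batch.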

Additional observations from a re-analysis of the deposited data

How the results depend on the processing

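No paired analysis was made, because the labels name no litter, batch or pairing. The genotypes share only replicate number 4, which the labels do not call a pair. Over 23 alternatives per gene, the log2 fold change of Wt1 ranged from 0.74 to 1.11, that of Slpi from -1.50 to -1.06 and that of Lrrn4 from 0.07 to 0.72, with no change of sign. By edgeR and limma, 0 members passed under any setting, and 0 genes passed in all, except 1 gene without DdblGata1 replicate 4 (leave-one-out range 0 to 1). DESeq2 called 214 genes and 2 members. In DESeq2 fits added after seeing the data, leaving out DdblGata1 replicates 4, 9 and 10 in turn gave 1025, 84 and 43 genes and 2, 1 and 1 members, and leaving out wild-type replicates 1, 3 and 4 gave 106, 239 and 165 genes and 1, 1 and 0 members. The signs of Msln, Upk3b and Upk1b, whose groups overlapped, turned in some settings. With 1 library left out, edgeR gave -0.15 to 0.46 for Msln, -0.23 to 0.24 for Upk3b and -0.22 to 0.40 for Upk1b. DESeq2 gave -0.14 and -0.024 for Msln, -0.22 and -0.19 for Upk3b and -0.21 and -0.19 for Upk1b without DdblGata1 replicate 10 and wild-type replicate 1 in turn, and -0.0041 for Upk3b without DdblGata1 replicate 4. Adding the surrogate variables of the sample sheet gave -0.13 for Msln, -0.14 for Upk3b and -0.22 for Upk1b. Upper-quartile scaling gave -0.028 for Upk3b. The covariate of the 4 genes, added after seeing the data, gave -0.15 for Upk3b and -0.044 for Upk1b. That covariate is a mean that holds Msln, Upk3b, Upk1b and Lrrn4 themselves. Its values for these 4 genes are therefore centred near 0 by construction, and their signs there do not bear on stability. The cause of the sign changes was not tested.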
